A study of Drosophila melanogaster with 25 samples.

Results

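The 3 genes of the Drosophila ELAV family and 7 genes used as markers of differentiated nervous tissue were followed through nuclear RNA libraries of 2 cell lines. The members were chosen by identifier: elav (FBgn0260400), fne (FBgn0086675), Rbp9 (FBgn0010263), nSyb (FBgn0013342), Syt1 (FBgn0004242), brp (FBgn0259246), futsch (FBgn0259108), Appl (FBgn0000108), Fas2 (FBgn0000635) and the glial gene repo (FBgn0011701). They are 10 of the 16037 genes in the count tables, and 10 of 10 passed the filter on low counts that left 9961 genes for testing. The filter asks for reads in only as many libraries as the smallest group holds, so a member could be tested that was close to 0 elsewhere.

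The study immunoprecipitated Shep, an RNA-binding protein, and Su(Hw), the zinc-finger protein that recruits the gypsy insulator to DNA, from nuclear extracts, and sequenced the polyadenylated RNA that came with them (RIP-seq). From Kc167 cells, an embryonic line with blood-cell properties called Kc here, there were 6 input libraries, 3 with the Su(Hw) antiserum Gp60, 3 with the Shep antiserum Rb5, 2 with Rb6 and 2 with Gp01. From BG3 cells, a line derived from the larval central nervous system, there were 2 inputs, 2 Gp60 and 2 Rb5 libraries. The labels name no mutation, transgene or drug for either line, extracts were precleared with preimmune serum, and each line is a single cultured population, so replicates are repeats within 1 line. No mock precipitation was used here, so RNA that binds beads or serum without Shep or Su(Hw) cannot be told apart from RNA bound to them.

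ELAV proteins bind AU- and U-rich RNA through RNA recognition motifs. In fly neurons elav directs alternative splicing and the use of distal polyadenylation sites, and fne and Rbp9 are its closest relatives. The other members mark differentiated cells: nSyb, Syt1 and brp serve the release of synaptic vesicles, futsch organises axonal microtubules, and Appl and Fas2 are membrane proteins of axons. Shep has itself been studied in neurons, where it acts in remodelling during metamorphosis.

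Counts assigned to genes ran from 6190633 (Kc Su(Hw) 1) to 59066733 (Kc Rb5 3) per library. Levels are given as CPM, gene counts scaled to a common library size by TMM, and differences as log2 folds ± SE. The SE was derived from edgeR's quasi-likelihood test, as the absolute log2 fold over the square root of its F. A gene is called where the Benjamini-Hochberg adjusted p over all 9961 genes is under 0.05. Without a spike-in a level is a share of the library, and CPM of different genes are not comparable because gene length is not taken into account. The BG3 libraries numbered 1 and those numbered 2 stood apart: deviations from the group mean correlated across genes at 0.637 between inputs and Rb5 and at 0.335 between inputs and Gp60. The library BG3 Gp60 1 had a TMM factor of 0.41, the lowest of the 22. One gene, FBgn0085813, held 13.7% to 30.1% of gene counts in the inputs and 2.75% to 22.8% in the precipitates.

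The first comparison asks how the members differ between the nuclear inputs of the 2 lines. Fas2, Appl, elav, Rbp9 and the glial gene repo were higher in BG3, whereas brp and futsch were lower there than in Kc. Of 10 members 5 were called higher and 2 lower, where 23.9% and 18.7% of all tested genes were called higher and lower. The median log2 fold was 1.30 over the members and 0.08 over all tested genes. In these bulk libraries fewer cells of a type and less RNA per cell cannot be told apart.

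**Figure D1:**
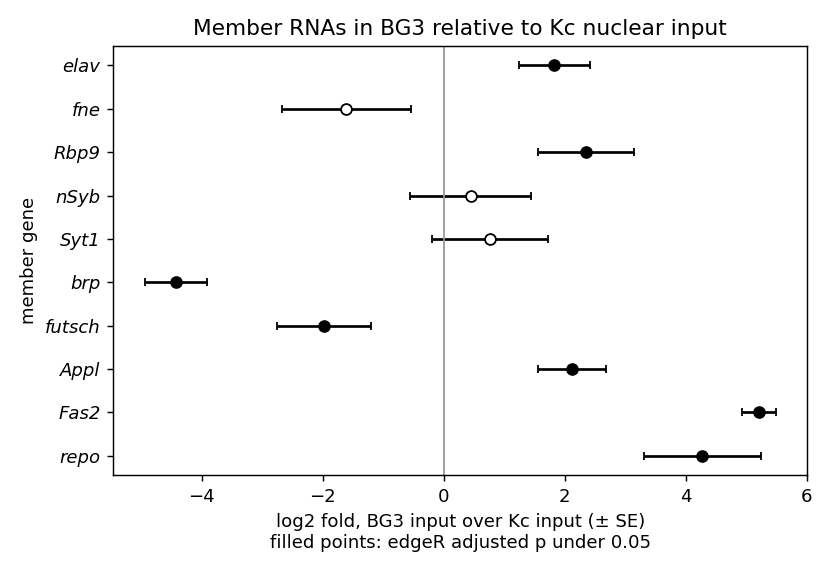
Log2 fold of each member between BG3 and Kc nuclear inputs (x axis, ± SE derived from edgeR's F, 2 against 6 libraries), with members on the y axis and filled points for called genes. Fas2 lies at 5.21 and brp at -4.42, with the neuronal genes on either side of 0.

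The neuronal label was checked against the reads of the BG3 inputs. The vesicle protein gene nSyb had 1 and 3 reads there, futsch 3 and 3, fne 0 and 3, and brp 4 and 4, so 4 of the 9 neuronal members were at or near 0 in the line of nervous origin. By contrast elav had 142 and 256 reads, Syt1 386 and 750, and Fas2 1637 and 1616. The 0 of fne in BG3 input 1 allows up to 0.0824 CPM (3 counts, counting error only).

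Levels of elav, the founding member of the family, were 3.90 and 8.67 CPM in the BG3 inputs. In the Kc inputs they ran from 0.755 to 4.48 CPM with a median of 2.16. The groups overlapped, as BG3 input 1 lay below the highest Kc input. The log2 fold of BG3 over Kc was 1.83 ± 0.59 (edgeR adjusted p = 0.0184), and within the sequencing class that both lines share (HiSeq with PHRED64 qualities, 2 inputs each) the difference in log2 CPM was 1.73. Counts of elav may include reads of arg and a noncoding RNA gene that overlap it. The call ended without BG3 input 2 or Kc input 5 (log2 1.15 to 1.72). It also ended with a replicate block in place of the class (log2 1.17, edgeR adjusted p = 0.104). That block joins BG3 and Kc inputs of the same number, which share no sequencing class. Their deviations correlated at 0.141 and -0.008, so they were not shown to be paired. With only the compared groups fitted it ended as well (log2 1.80, edgeR adjusted p = 0.0579).

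With the Shep antisera Rb5 and Rb6, 6 of 7 libraries held more elav than the mean input of their line, and edgeR called none of the differences. In BG3 cells Rb5 gave 9.12 and 17.2 CPM, both above the BG3 inputs, at a log2 fold of 1.07 ± 0.64 (edgeR adjusted p = 0.299). In Kc cells Rb5 gave 2.27, 10.3 and 6.75 CPM, which overlapped the inputs, at 1.18 ± 0.53 (edgeR adjusted p = 0.106). Rb6 gave 5.75 CPM in each of its libraries, above every Kc input, at 1.47 ± 0.57 (edgeR adjusted p = 0.0601). As folds these were 2.10, 2.26 and 2.78. The Rb6 difference was called by DESeq2 (log2 1.54, adjusted p = 0.0301) and, in edgeR, without Kc input 1 or 2 (adjusted p = 0.0387 and 0.0467). The Kc Rb5 difference was called without Rb5 1 (log2 1.55, edgeR adjusted p = 0.0211).

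The ratio of elav in Rb5 to the input of the same number was 3.01, 2.30 and 1.87 in Kc cells and 2.34 and 1.99 in BG3 cells. The like ratios were 2.76 and 1.35 for BG3 Gp60. For Kc Gp60 they were 6.54, 0.547 and 0.686, but there only number 1 shared a sequencing class with its input. Deviations of same-numbered Kc Gp60 and input libraries correlated at -0.075, 0.043 and -0.348, so these ratios were not shown to be of paired samples. The 3 Kc Rb5 pairs each lie within a sequencing class, so pairing by number and by class cannot be told apart there. With the replicate block in place of the class the Kc Rb5 log2 fold was 1.10 (edgeR adjusted p = 0.107) and was not called. Rb6 exceeded the inputs of its own class by 1.29 and 1.71 in log2 CPM.

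The antiserum Gp01, raised against the same protein, gave 1.32 and 3.18 CPM of elav, within the range of the Kc inputs, at a log2 fold of 0.01 ± 0.62 (edgeR adjusted p = 0.996). Rb6 and Gp01 share both of their sequencing classes, and elav was higher with Rb6 by 1.46 ± 0.66, a difference that was not called (edgeR adjusted p = 0.116). It differed by 0.84 and 2.08 in log2 CPM within the classes. This Rb6 difference from Gp01 was called without the filter on low counts (log2 1.49, edgeR adjusted p = 0.00114). It was also called with only the compared groups fitted (log2 1.51, edgeR adjusted p = 1.1e-08). That fit held only the Rb6 and Gp01 libraries with a term for the class. It called 4832 genes, against 2813 in the fit to all libraries, so its small p is not particular to elav. With Su(Hw) antiserum Gp60, elav stood at 10.8 and 11.8 CPM in BG3 cells and at 4.94, 2.45 and 2.48 CPM in Kc cells, at log2 folds of 0.85 ± 0.65 and 0.35 ± 0.51 (edgeR adjusted p = 0.347 and 0.646). Direct comparison of Rb5 with Gp60 gave 0.23 ± 0.63 in BG3 and 0.83 ± 0.60 in Kc cells (edgeR adjusted p = 0.865 and 0.328). A preference of elav RNA for Shep over Su(Hw) was thus not detected in this fit. Without the filter on low counts edgeR called the Kc difference (log2 0.93, adjusted p = 0.041).

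Ordered by mean level, elav stood at 13.2 ± 5.73 CPM in BG3 Rb5 (SD, n = 2), 11.3 ± 0.699 in BG3 Gp60 (n = 2), 6.45 ± 4.04 in Kc Rb5 (n = 3), 6.29 ± 3.37 in BG3 input (n = 2) and 5.75 in Kc Rb6 (n = 2). Below these came Kc Gp60 at 3.29 ± 1.43 (n = 3), Kc input at 2.44 ± 1.38 (n = 6) and Kc Gp01 at 2.25 ± 1.32 (n = 2). Only the steps from BG3 Gp60 to Kc Rb5 and from Kc Rb6 to Kc Gp60 exceeded the larger SD of the neighbours.

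The other ELAV genes were sparse, and their reads limit what can be compared. Rbp9, which also acts in the female germline, had 22 and 27 reads in the BG3 inputs (0.604 and 0.915 CPM). The 6 Kc inputs held 0 to 12 reads, at most 0.285 CPM, so the groups did not overlap. The gene overlaps the more abundant gene Ts, and the counting strand is not given. BG3 exceeded Kc by 2.36 ± 0.79 log2 units (edgeR adjusted p = 0.0216) and by 1.47 within the shared class. The call ended without BG3 input 2 or Kc input 6 (log2 2.04 to 2.07). It also ended with the replicate block and with only the compared groups fitted (log2 1.59 to 2.43, edgeR adjusted p = 0.0644 to 0.127). The inputs that the block joins across the lines were not shown to be paired. With Rb5 in BG3 cells Rbp9 stood at 0.506 and 1.10 CPM and with Gp60 at 0.476 and 1.71 CPM, on both sides of the inputs (log2 folds of 0.09 ± 0.81 and 0.63 ± 0.83, edgeR adjusted p = 0.967 and 0.593).

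The gene fne, a neuronal relative whose protein is found largely in the cytoplasm, went the other way between the lines, at 3 reads in total in the BG3 inputs and 30 in the Kc inputs (2 to 12 per library). Its log2 fold of -1.61 ± 1.06 was not called (edgeR adjusted p = 0.237). Su(Hw) precipitates held more of it: 9 and 6 reads in BG3 cells (0.857 and 0.168 CPM), called at 3.11 ± 1.10 (edgeR adjusted p = 0.0425). As the inputs had 3 reads, the ratio of summed counts is 7.14 with a 95% exact counting interval from 2.02 to 38.5. The call ended without BG3 input 1 or BG3 Gp60 1 (edgeR adjusted p = 0.263 to 0.371), and with the replicate block (log2 3.11, edgeR adjusted p = 0.0586). In Kc cells Gp60 gave 4, 19 and 14 reads (0.897, 0.630 and 0.369 CPM), overlapping the inputs at the lower end, at 1.59 ± 0.67 (edgeR adjusted p = 0.0869).

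**Figure D2:**
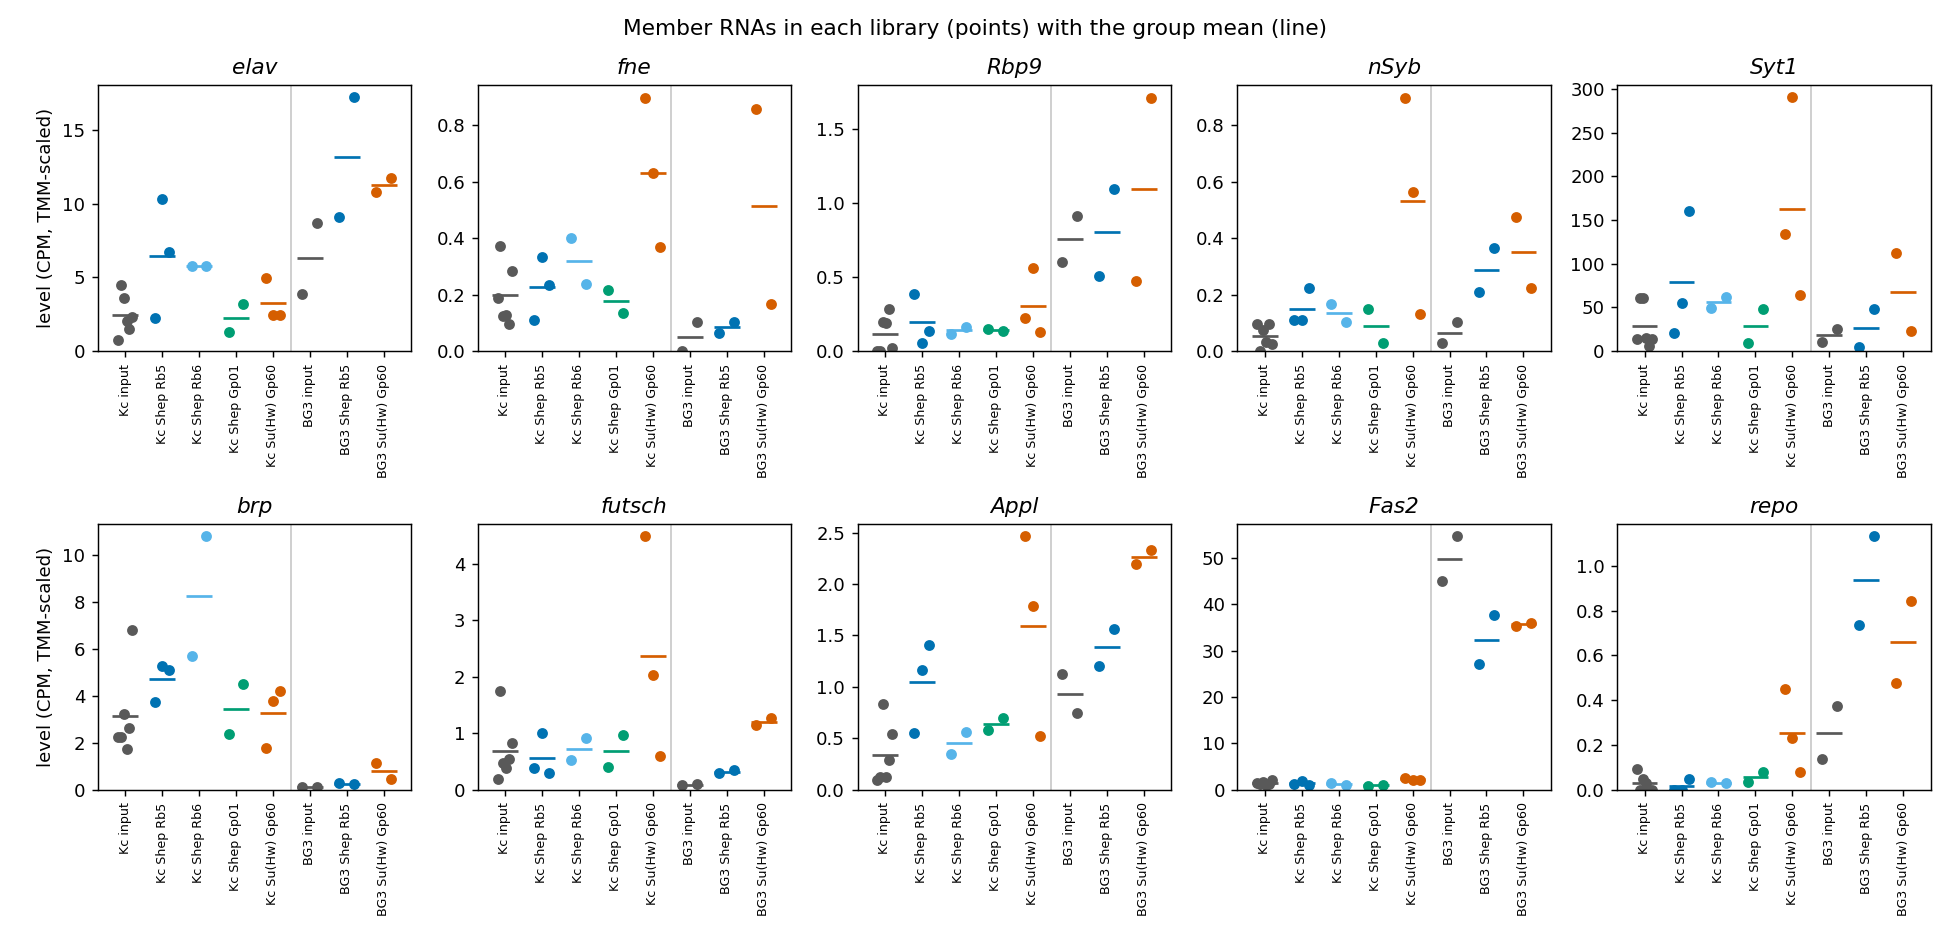
Level of each member (y axis, TMM-scaled CPM, a separate linear scale per panel) in the 22 libraries, grouped by cell line and antiserum on the x axis, with points for libraries and a line for the group mean. Fas2 separates the lines, brp is near 0 in BG3 libraries, and Syt1 and elav spread several-fold within groups.

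Among the synaptic genes brp, which builds the dense projections of active zones, separated the lines most clearly. The BG3 inputs held 0.110 and 0.136 CPM and the Kc inputs 1.75 to 6.79 CPM (median 2.44), with no overlap. The log2 fold was -4.42 ± 0.52 (edgeR adjusted p = 1.06e-06), a 21.5-fold difference, and the call held under each of the 15 alternatives run (log2 -4.67 to -4.16).  Within the class that both lines share the difference in log2 CPM was -3.63.

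In Kc cells brp was higher with Rb5 and with Rb6. Rb5 libraries stood at 3.71, 5.27 and 5.10 CPM and Rb6 libraries at 5.69 and 10.8 CPM. All 5 exceeded Kc inputs 1 to 5, and Rb6 2 also exceeded input 6. The log2 folds were 0.99 ± 0.32 and 0.98 ± 0.34 (edgeR adjusted p = 0.0233 and 0.0344), and within classes the differences ran from 0.65 to 1.39. With the replicate block in place of the sequencing class, the Rb5 log2 fold was 0.86 (edgeR adjusted p = 0.108) and not called. Without the class it was 0.56 and with only the compared groups 0.85, neither called (edgeR adjusted p = 0.332 and 0.065). The Rb5 call also ended without Kc input 1, Rb5 2 or Rb5 3 (0.0507 to 0.102) and the Rb6 call without Kc input 4, 5 or 6, Rb6 1 or Rb6 2 (0.0553 to 0.411, both edgeR adjusted p).

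Gp01 gave 2.39 and 4.5 CPM of brp, within the Kc inputs, at -0.28 ± 0.35 (edgeR adjusted p = 0.615). The direct test put Rb6 above Gp01 by 1.25 ± 0.39 (edgeR adjusted p = 0.0198), with 1.23 and 1.25 within the classes, and the libraries of the antisera did not overlap. That call ended without any 1 of the 4 libraries (edgeR adjusted p = 0.0709 to 0.213). In BG3 cells Rb5 gave 13 and 13 reads of brp (0.274 and 0.226 CPM), above both inputs, at a log2 fold of 1.01 ± 0.59 that was not called (edgeR adjusted p = 0.283). With Su(Hw) in BG3 cells brp rose from 4 and 4 reads in the inputs to 12 and 16 reads with Gp60 (1.14 and 0.449 CPM), at 2.50 ± 0.59 (edgeR adjusted p = 0.00447). The call ended without Gp60 1 (log2 1.85, edgeR adjusted p = 0.0573). In Kc cells Gp60 gave 1.80, 3.78 and 4.22 CPM, among the inputs (0.39 ± 0.30, edgeR adjusted p = 0.357), and the difference between the lines in the Gp60 fold was 2.12 ± 0.66 and not called (edgeR adjusted p = 0.0987), except without BG3 Gp60 2 (log2 2.79, 0.0305). Rb5 was below Gp60 in BG3 cells by -1.49 ± 0.51, which edgeR did not call (adjusted p = 0.0559) but did without Gp60 2 (-2.17, 0.0143), and which DESeq2 called (adjusted p = 0.0267).

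Syt1, the calcium sensor of vesicle fusion, varied widely between libraries of a group. The Kc inputs ran from 5.85 to 61.0 CPM with a median of 14.8, and inputs 2 and 3 stood at 61.0 and 60.8 CPM while the others were at most 15.3. The BG3 inputs, at 10.6 and 25.4 CPM, lay inside this range. The fitted difference, which takes the class into account, was 0.77 ± 0.95 (edgeR adjusted p = 0.554), although the mean was 18.0 CPM in BG3 and 28.5 CPM in Kc inputs. A noncoding RNA gene overlaps Syt1.

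With Su(Hw) in Kc cells Syt1 rose to 134, 290 and 64.6 CPM, each above every input, at 2.27 ± 0.73 (edgeR adjusted p = 0.0402). Within the 3 classes that hold a Gp60 library the differences were 2.20, 2.25 and 2.76 in log2 CPM. The call ended without Kc input 1, 3, 5 or 6 or any 1 Gp60 library (edgeR adjusted p = 0.0701 to 0.208). Rb5 gave 20.6, 55.4 and 160 CPM and Rb6 49.6 and 62.1 CPM, at 0.64 ± 0.82 and 1.98 ± 0.93, and neither was called (edgeR adjusted p = 0.611 and 0.125). In BG3 cells the libraries of a group lay far apart, at 4.74 and 48.0 CPM with Rb5 and 112 and 22.4 CPM with Gp60. The differences from input there were 0.55 ± 1.06 and 1.89 ± 1.09 and not called (edgeR adjusted p = 0.775 and 0.215). Without the filter on low counts edgeR called Syt1 higher with BG3 Gp60 (log2 1.72, adjusted p = 2.6e-06), Kc Rb5 (0.67, 0.0305) and Kc Rb6 (1.96, 1.34e-10).

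nSyb, the vesicle SNARE, was sparse in the inputs, with 0 to 4 reads per library in both lines. Gp60 raised it in Kc cells to 4, 17 and 5 reads (0.897, 0.563 and 0.132 CPM), above the highest Kc input at 0.0951 CPM, at 2.30 ± 0.70 (edgeR adjusted p = 0.0236). The call ended without Kc input 3, Gp60 1 or Gp60 2 (edgeR adjusted p = 0.0855 to 0.143). In BG3 cells Rb5 gave 10 and 21 reads and Gp60 5 and 8, at 2.17 ± 0.88 and 2.29 ± 0.95 (edgeR adjusted p = 0.119 and 0.0793). With Rb6 in Kc cells the value was 2.05 ± 0.80 (edgeR adjusted p = 0.0610, called without Kc input 5 at 0.0298) and with Rb5 0.69 ± 0.77 (0.554).

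The cytoskeletal gene futsch, a fly relative of the microtubule-associated protein MAP1B, was lower in BG3 than in Kc inputs and higher with Su(Hw) in both lines. The inputs held 0.0824 and 0.102 CPM in BG3 and 0.189 to 1.74 CPM (median 0.507) in Kc cells without overlap. The fold was -1.98 ± 0.77 in log2 units (edgeR adjusted p = 0.0465). The receptor gene Gr2a overlaps futsch. The call ended without either BG3 input or any 1 of Kc inputs 2 to 6 (log2 -2.11 to -1.64). It also ended with only the compared groups fitted (log2 -2.35, edgeR adjusted p = 0.0764).

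With Gp60 in BG3 cells futsch rose from 3 and 3 reads to 12 and 45 (1.14 and 1.26 CPM), at 3.68 ± 0.81 (edgeR adjusted p = 0.00279). The Gp60 libraries stood together, and this call held under each of the 11 alternatives run (log2 3.53 to 3.81). In Kc cells Gp60 gave 4.49, 2.02 and 0.606 CPM, with Gp60 3 among the inputs, at 1.57 ± 0.49 (edgeR adjusted p = 0.0273), and the call ended without Kc input 1 or 3, Gp60 1 or Gp60 2 (0.0536 to 0.132). Rb5 libraries of Kc cells stood at 0.388, 0.999 and 0.297 CPM, among the inputs (-0.81 ± 0.57, edgeR adjusted p = 0.311, called lower without Kc input 1 at 0.0428), and futsch was lower with Rb5 than with Gp60 by -2.38 ± 0.57 (edgeR adjusted p = 0.00516). That difference was -2.73 and -2.56 within the classes, and its call ended without Rb5 3 or Gp60 1 (0.0544 and 0.0543). In BG3 cells Rb5 gave 0.295 and 0.348 CPM, between input and Gp60, at 1.78 ± 0.83 over input and -1.90 ± 0.67 against Gp60 (edgeR adjusted p = 0.172 and 0.0649).

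Appl, the fly relative of the amyloid precursor protein, was higher in BG3 inputs (1.13 and 0.745 CPM) than in most Kc inputs (0.0944 to 0.835 CPM, median 0.206). Kc input 3 overlapped the BG3 range, and a microRNA gene overlaps Appl. The log2 fold was 2.12 ± 0.56 (edgeR adjusted p = 0.00482) and 1.97 within the shared class. The call ended without BG3 input 1 (log2 1.78). It also ended without the sequencing class in the fit and with the replicate block in its place (log2 1.32 to 1.34, edgeR adjusted p = 0.0924 to 0.201). Gp60 in Kc cells gave 2.47, 1.79 and 0.527 CPM, called higher at 1.78 ± 0.49 (edgeR adjusted p = 0.0145), with 11, 54 and 20 reads. Without Gp60 1 the log2 fold was 1.29 and the call ended (0.0787). In BG3 cells Gp60 stood at 2.19 and 2.33 CPM and Rb5 at 1.2 and 1.57 CPM, all above the inputs, but neither fold was called (1.27 ± 0.59 and 0.56 ± 0.58, edgeR adjusted p = 0.117 and 0.565).

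Fas2, an adhesion molecule of axon bundles, was the most strongly BG3-biased member. Its BG3 inputs held 45.0 and 54.8 CPM and the Kc inputs 1.05 to 2.03 CPM (median 1.38), a 37.0-fold difference (log2 5.21 ± 0.28, edgeR adjusted p = 2.11e-11), and the call held under each of the 15 alternatives run. In edgeR's test it was not called against input with any antiserum. In BG3 cells it stood at 27.1 and 37.7 CPM with Rb5 and 35.4 and 36.0 CPM with Gp60, below both inputs in all 4 libraries, at -0.62 ± 0.28 and -0.48 ± 0.28 (edgeR adjusted p = 0.159 and 0.209). In Kc cells Gp60 libraries lay above all inputs at 2.47, 2.19 and 2.11 CPM (0.61 ± 0.24, edgeR adjusted p = 0.0750), a difference called without Kc input 6 (0.70, 0.0419). The Gp60 fold differed between the lines by -1.09 ± 0.37, which was not called (edgeR adjusted p = 0.134). Rb5 in Kc cells, at 1.22, 1.83 and 1.08 CPM, was below Gp60 by -0.83 ± 0.30 (edgeR adjusted p = 0.0477). The call ended without any 1 of these 6 libraries except Rb5 2 (0.0903 to 0.407). It also ended without the filter on low counts, without the class, without FBgn0085813, with the replicate block and with only the compared groups (log2 -0.89 to -0.72, edgeR adjusted p = 0.0641 to 0.218).

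The glial transcription factor gene repo was higher in BG3 than in Kc inputs, at low counts in both. The BG3 inputs had 5 and 11 reads and the 6 Kc inputs 0 to 2, with 3 of them at 0, which allows up to 0.0710 to 0.374 CPM in those libraries. The log2 fold was 4.27 ± 0.97 (edgeR adjusted p = 0.00139), and the ratio of summed counts was 10.6 with a 95% exact counting interval from 3.43 to 43.7. Within the class that both lines share the difference in log2 CPM was 2.06. With the replicate block the log2 fold was 1.97 and not called (edgeR adjusted p = 0.175), but the inputs it joins across the lines were not shown to be paired. The gene CG7156 overlaps repo. With Rb5 in BG3 cells repo had 35 and 65 reads (0.737 and 1.13 CPM), both above the inputs, at 1.89 ± 0.71 (edgeR adjusted p = 0.0944), and with Gp60 5 and 30 reads (1.46 ± 0.75, edgeR adjusted p = 0.154). In Kc cells Gp60 had 2, 7 and 3 reads, called higher than input at 2.54 ± 0.88 (edgeR adjusted p = 0.0433) and higher than Rb5, which had 0, 0 and 4 reads (Rb5 minus Gp60 -3.11 ± 0.99, edgeR adjusted p = 0.0258). Both calls rest on at most 12 reads. They ended without Gp60 1 or Gp60 2, the first also without Gp60 3 or Kc input 2, 3, 5 or 6 (edgeR adjusted p = 0.0542 to 0.166).

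**Figure D3:**
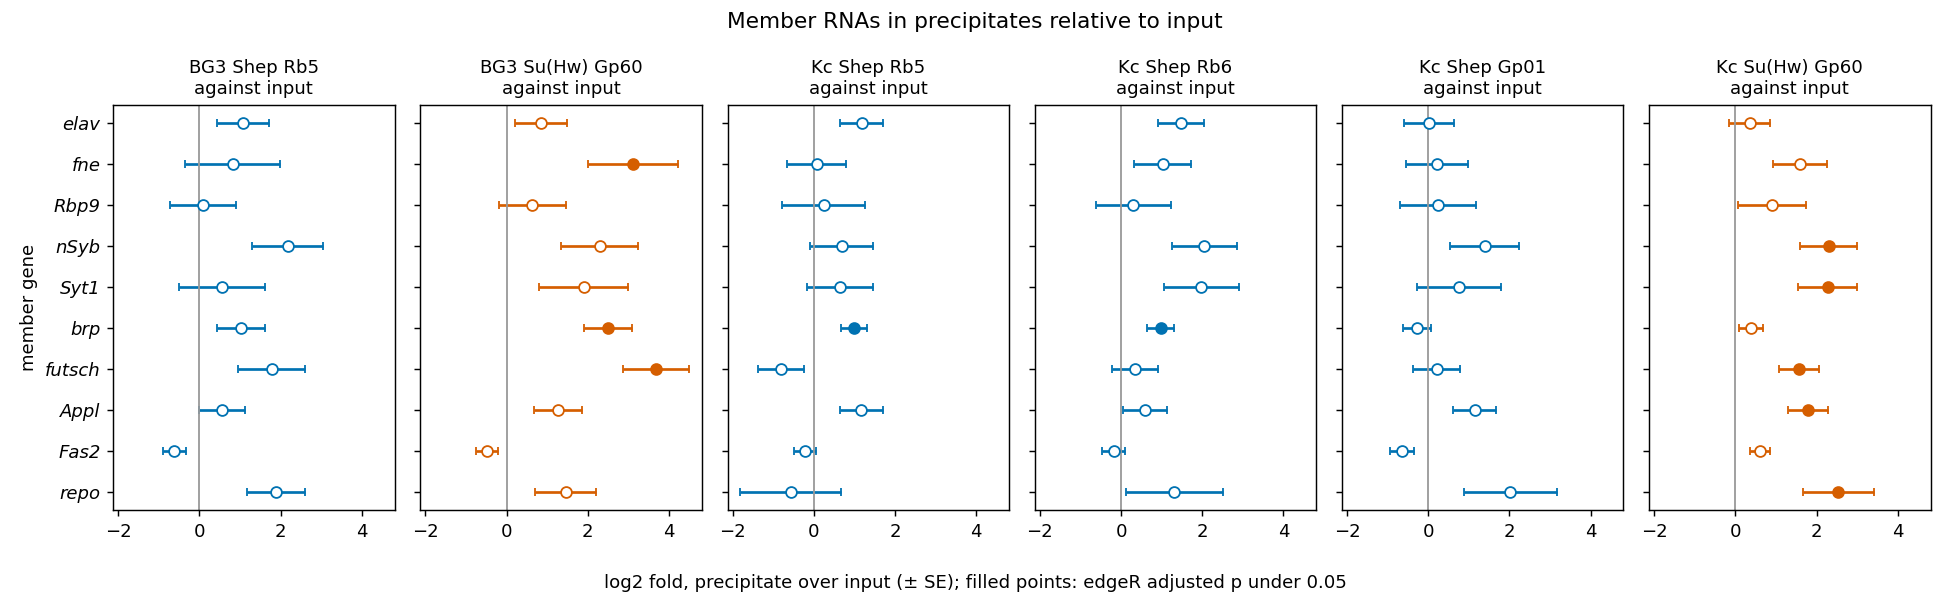
Log2 fold of each member in each precipitate over the input of the same line (x axis, ± SE derived from edgeR's F), with members on the y axis and filled points for called genes, Shep antisera in blue and Su(Hw) in orange. Called genes number 0 for BG3 Rb5 and Kc Gp01, 1 each for Kc Rb5 and Rb6, 3 for BG3 Gp60 and 5 for Kc Gp60, and each called gene is higher.

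By count, the Su(Hw) antiserum gave more calls among the members than any antiserum against Shep. In BG3 cells its share of members called was near that of all genes. Of all genes there, 27.5% were called with Gp60 and 11.0% with Rb5. In Kc cells Gp60 raised nSyb, Syt1, futsch, Appl and repo, 5 of 10, where 24.2% of all tested genes were called in either direction. The members had a median log2 fold of 1.58 (0.11 over all genes). Kc Gp60 1, the library with the fewest counts, was the highest of the 3 for nSyb, futsch, Appl and repo. Without it the 5 calls ended. Without Gp60 2 the calls of nSyb, Syt1, futsch and repo also ended, and without Gp60 3 those of Syt1 and repo. Whether the depth of Gp60 1 had a part in the calls was not tested.

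In BG3 cells Gp60 raised fne, brp and futsch, 3 of 10, where 27.5% of all genes were called in either direction, with a median of 1.67 over the members and 0.18 over all genes. Of the genes called in the 2 lines only futsch was shared. The difference between the lines in the Gp60 fold was called for 0 members, where 2.59% of genes were called. DESeq2 also called 0 members, so no member was shown to differ. Before adjustment 3 members had a p under 0.05 in edgeR.

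Shep antiserum Rb5 gave 1 call in Kc cells, brp, where 29.8% of genes were called in either direction. In BG3 cells it gave 0 calls, where 11.0% of genes were called, and DESeq2 also called 0 members. There 4 members had an unadjusted p under 0.05 in edgeR. Those 4 were nSyb, futsch and repo, with folds above 0, and Fas2, with a fold below 0. DESeq2 gave no adjusted p for futsch and repo in that comparison. The Rb5 fold was called different between the lines for 0 members and for 0.0904% of all genes. DESeq2 also called 0 members, and 1, futsch, had an unadjusted p under 0.05 in edgeR. Rb6 gave 1 call, brp (29.9% of genes in either direction), and Gp01 gave 0 (20.2% of genes in either direction). With Gp01, DESeq2 also called 0 members, and 2 had an unadjusted p under 0.05 in edgeR. The comparisons with input share their input libraries within a line.

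Direct tests between antisera touched few members. Of the 10, 3 were called lower with Rb5 than with Gp60 in Kc cells (futsch, Fas2 and repo, where 26.6% of genes were called in either direction). In BG3 cells the same contrast called 0, where 14.3% of genes were called. There 3 members had an unadjusted p under 0.05 in edgeR, and DESeq2 called 2 members. Rb6 exceeded Gp01 for 1 member, brp, where 28.2% of genes were called.

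**Figure D4:**
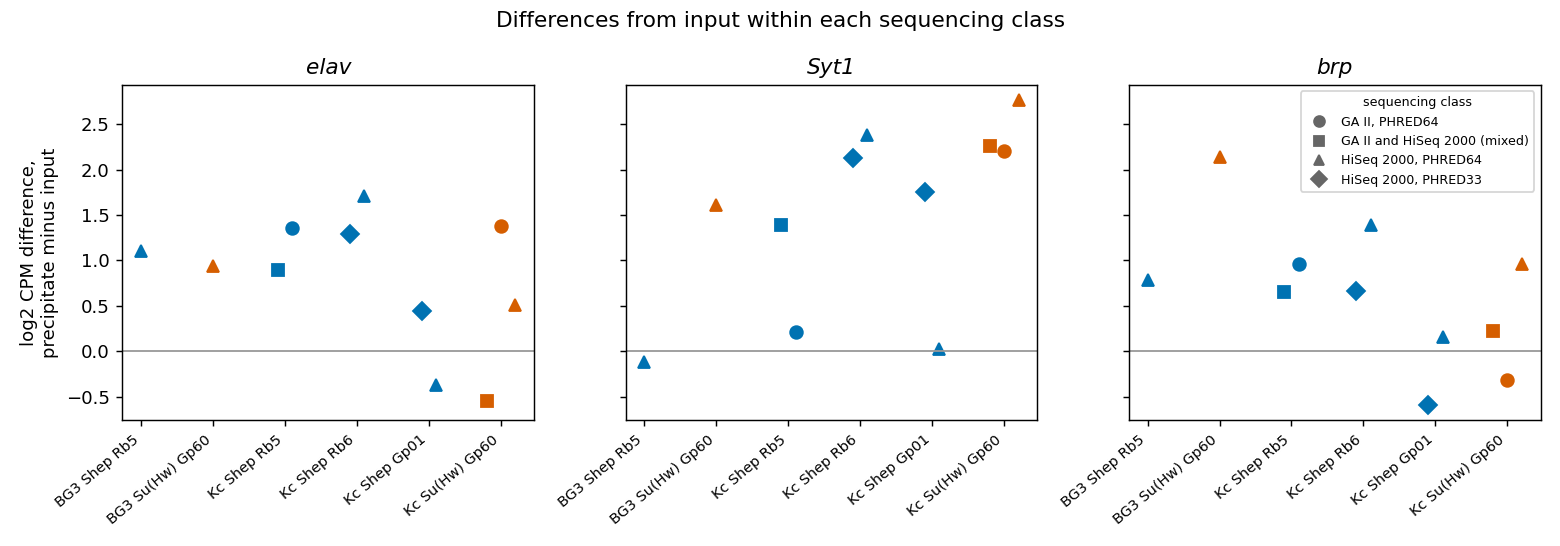
Difference in log2 CPM between precipitate and input (y axis) within each sequencing class for elav, Syt1 and brp, by precipitate on the x axis, with Shep antisera in blue, Su(Hw) in orange and the marker shape for the class. Syt1 with Kc Gp60 lies between 2.20 and 2.76 in its 3 classes and elav with Rb5 or Rb6 between 0.89 and 1.71, whereas elav with Kc Gp60 ranges from -0.55 to 1.38.

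Of markers for other cell types, few could be matched to identifiers. The gene gcm2 (FBgn0019809), a relative of the gcm factor, was on the glial list, and whether it marks glia in these lines was not tested. It had 9 and 4 reads in the BG3 inputs and at most 1 in a Kc input. Like repo it was called higher in BG3, at 5.44 ± 1.34 (edgeR adjusted p = 0.00397). The growth factor gene Idgf3 (FBgn0020414), used as a haemocyte marker, stood at 2.56 and 1.42 CPM in BG3 and at 114.5 to 194.6 CPM in Kc inputs (log2 -6.51 ± 0.37, edgeR adjusted p = 4.26e-11). The part of glial cells in the result for repo was not tested.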

How the data were processed

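The authors deposited raw read counts per gene for 25 samples, with FBgn identifiers. Per the submitters' processing notes reads were handled with HTSeq, Bowtie2, TopHat2, DESeq and cutadapt 1.2.1 on build dm3. Neither the strand setting nor the annotation release is given in the sources used here. The 3 Kc samples listed 2 times with identical files were counted once, leaving 22 libraries. Reads assigned to no gene (50.2% to 91.2% of a library) were left out. Samples were grouped by title. edgeR 4.0.16 (limma 3.58.1, R 4.3.3) was fitted to all libraries with TMM, the robust quasi-likelihood test and a covariate for 4 sequencing classes made from the machine and quality encoding. Its filter kept genes with at least 10 reads at the median depth in enough libraries and 15 in all, and 12 comparisons were adjusted separately. Log2 CPM values within classes used a prior count of 2. The fit was tested on simulated data. DESeq2 1.42.0 and further settings served as alternatives.

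Members and lists were chosen with earlier results of these data known, and all 10 members are described. Replicates are biological according to the labels, on which the p-values depend. For Kc Rb5 against input, same-numbered libraries had deviations correlated at 0.490, 0.306 and 0.309. Each of these pairs also shares a sequencing class, so pairing by number cannot be told apart from the class. Member symbols came with the rule, since the RefSeq table (assembly Release 6 plus ISO1 MT) pairs 172 of the identifiers with a symbol and 0 of the members. Of the marker lists it matched 0 of 42 further neuron genes, 0 of 19 neuronal RNA-binding protein genes, 0 of 8 neuroblast genes, gcm2 of the 10 glial genes (beside repo) and Idgf3 of the 12 haemocyte genes. By that annotation 6 members overlap another gene (elav, Rbp9, Syt1, futsch, Appl and repo), so their counts are uncertain without strand.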

Additional observations from a re-analysis of the deposited data

Results flagged for a closer look

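The level of brp in Kc input 6 was 6.79 CPM, far from the other Kc inputs, which lay between 1.75 and 3.22 CPM. Its gap to the nearest library passed Dixon's 95% critical value for 6 samples. Chance passes it in about 1 of 20 such checks, and 10 were made, 1 per member in the same 6 Kc inputs. Kc input 6 is the single input of its sequencing class, in which brp stood at 10.8 CPM with Rb6 and 4.5 CPM with Gp01.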

How the results depend on the processing

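Over the 21 called differences of members there were 294 alternative values, of which 206 kept the call, 88 lost it and 0 turned the direction. Among the 99 uncalled differences, 31 of 1422 alternative values were called and 101 turned sign without being called. Without FBgn0085813, an alternative chosen after seeing the data, Kc Rb6 against input had 3 member calls in place of 1. RLE size factors gave 1 call and DESeq2 2 calls for BG3 Rb5 against Gp60 in place of 0, and DESeq2 gave 2 for Kc Rb6 against input, gaining elav (adjusted p = 0.0301). Without a filter on low counts there were 2 calls for BG3 Rb5 against Gp60 and 3 each for Kc Rb5 against input, Kc Rb6 against input and Rb6 against Gp01 (1 each before), with elav (edgeR adjusted p = 0.000809 and 0.000149) and Syt1 (0.0305 and 1.34e-10) gained for Kc Rb5 and Kc Rb6 against input. Syt1 was also gained there for BG3 Gp60 against input (2.6e-06). Without the class, 0 were called for Kc Rb5 against Gp60 (3 before) and 0 for Rb6 against Gp01. The replicate block in place of the class gave 3 calls between inputs (7 before), 0 for Kc Rb5 against input, 0 for Kc Gp60 against input (5 before) and 1 for Kc Rb5 against Gp60. Between the lines that block joins inputs that were not shown to be paired. With only the compared groups the counts were 3 between inputs, 1 for BG3 Gp60 against input (3 before), 0 for Kc Rb5 against input, 2 for Kc Rb6 against input, 3 for Kc Gp60 against input, 1 for Kc Rb5 against Gp60 and 3 for Rb6 against Gp01. For Rb6 against Gp01 that setting called 4832 of all genes, against 2813 before. The cause of these changes was not tested.

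Leaving out 1 library at a time gave 4 to 7 calls between inputs, 1 to 3 for BG3 Gp60 against input, 0 to 2 for BG3 Rb5 against Gp60, 0 to 2 each for Kc Rb5 and Kc Rb6 against input, 0 to 5 for Kc Gp60 against input, 0 to 3 for Kc Rb5 against Gp60, 0 for Rb6 against Gp01 and 0 to 1 for the Gp60 fold between lines. Where this left a group with 1 library, its spread was taken from the other groups. Counts under 10 reads in 1 or more input libraries limit fne, Rbp9, nSyb, brp, futsch, Appl and repo, and also elav in Kc input 1 (8 reads).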

Other observations

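Across the means of the 8 groups, log2 CPM of elav correlated with Rbp9 at r = 0.79, Fas2 at 0.75, repo at 0.71 and Appl at 0.67, and with brp at -0.55 and fne at -0.16. Among 80 tested genes with a symbol, those closest to elav were CG12520 (r = 0.91), CG30154 (0.85) and CG12091 (0.85). These are descriptions over groups that share a cell line and sequencing classes.

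In the RefSeq annotation Rbp9 overlaps Ts (FBgn0024920), the thymidylate synthase gene, which stood at 125 ± 61.5 CPM in the BG3 inputs (SD, n = 2) and 149 ± 33.2 CPM in the Kc inputs (n = 6). Its log2 difference was -0.48 ± 0.30 (edgeR adjusted p = 0.219). Rbp9 was higher in BG3 by 2.36 ± 0.79 in the same fit. The part of Ts reads in the counts of Rbp9 was not tested.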
